A study of Mus musculus with 12 samples.

Results

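The CREB family factors and their coactivators described here are 8 genes chosen by name from the 54532 genes measured: the factors Creb1, Crem and Atf1, the coactivators Crtc1, Crtc2 and Crtc3, and the acetyltransferases Crebbp and Ep300. RNA sequencing was performed on mouse primary CD8+ T cells from the spleen and lymph nodes of C57BL/6 mice. The cells were activated, given an siRNA that targets no gene (siNTC) or 1 that targets Creb1 (siCreb1), and cultured for 24 h with 20 μM trans-vaccenic acid (TVA, a dietary fatty acid) or with the vehicle DMSO. This gave 4 groups of 3 libraries each, all from activated and transfected cells, namely siNTC, siNTC+TVA, siCreb1 and siCreb1+TVA. The knockdown was transient and acted on the mRNA, so the cells kept the Creb1 gene, and protein and phosphorylation were not measured in these libraries. The question put to the data was how much mRNA of Crem and Atf1, and of the coactivators, the cells held when Creb1 was lost.

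CREB1, CREM and ATF1 form a subfamily of basic leucine-zipper factors that bind the cyclic AMP response element (CRE) as homodimers or as heterodimers with each other. Kinases such as PKA phosphorylate them in the kinase-inducible domain, which then recruits the acetyltransferases CBP and p300, the products of Crebbp and Ep300. The CRTC proteins bind the leucine-zipper region instead, and are held in the cytoplasm when SIK kinases phosphorylate them and released when calcineurin removes the phosphate. In T cells this pathway is known as a reader of cyclic AMP and of antigen receptor signals, and Crem also encodes short repressors such as ICER from an internal promoter.

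The libraries held between 16660234 and 24602484 reads, recovered from the deposited FPKM (fragments mapped to a gene, scaled by its length and by library size). Each of the 6 siCreb1 libraries was deeper than each of the 6 siNTC libraries, with 20760297 reads in the shallowest siCreb1 library and 20758033 in the deepest siNTC library. Of 9 markers of CD8 T cells, all had a mean of at least 1 FPKM, and their summed level was 2774 to 2791 FPKM in siNTC and 2646 to 2656 FPKM in siCreb1 libraries without TVA, and 2746 to 2776 and 2632 to 2658 FPKM with TVA. These markers did not move together. Without TVA the means of Cd8a, Cd3e and Gzmb were higher in siCreb1 libraries (417 to 443, 94.7 to 101 and 72.4 to 97.9 FPKM). Those of the other 6 were lower, among them the abundant Cd8b1 (934 to 835 FPKM). The summed markers of CD4 T cells (4 genes) lay between 5.37 and 7.22 FPKM over all groups, those of B cells (5 genes) between 9.48 and 14.2 FPKM, and erythroid markers (3 genes, of which Hbb-bs was at 0 in every library) between 0.025 and 0.567 FPKM. Myeloid markers (5 genes) summed to 8.54 to 9.40 FPKM in siNTC and 8.38 to 10.5 FPKM in siCreb1 libraries, and to 7.96 to 8.24 and 10.7 to 12.2 FPKM with TVA. NK cell markers (4 genes, which activated CD8 T cells also express in part) summed to between 88.9 and 101 FPKM. The part of the depth and of these marker levels in the results on the 8 genes was not tested. In such bulk samples fewer cells of a type and less RNA per cell cannot be told apart.

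RefSeq promoters of GRCm38.p6 (250 bases before to 50 bases after the start) were listed for 6 of the 8 genes and not for Crtc2, and the Crem promoter was not used here. The full CRE, TGACGTCA, was in none of the 6 promoters, against 1.79% of all 32851 promoters, and its shorter form TGACG or CGTCA on either strand was in 1 of them, Atf1, against 20.8% of all promoters. The stretch around that motif is shown with those of Dusp1, a MAP kinase phosphatase, and Junb, an AP-1 subunit. Both are textbook CREB target genes chosen for display after their values were seen, since their mRNA was lower after Creb1 knockdown without TVA. With TVA neither passed in limma. Capitals mark the motif, the sequences run 5′ to 3′ on the strand of the gene, and in Dusp1 the second run of capitals is the full CRE.
Atf1, chr15:100227754-100227788, plus strand: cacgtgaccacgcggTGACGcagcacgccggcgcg
Dusp1, chr17:26508593-26508678, minus strand: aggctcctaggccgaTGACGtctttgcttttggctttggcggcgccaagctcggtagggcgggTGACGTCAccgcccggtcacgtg
Junb, chr8:84978835-84978869, minus strand: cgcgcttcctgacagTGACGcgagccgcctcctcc
The motif of Atf1 begins 90 bases before the start and that of Junb 106 bases before it, and those of Dusp1 begin 191 and 143 bases before it. Of other textbook target genes that fell without TVA, Mcl1 also held the short motif, while Cited2, Gadd45b and Irs2 did not. Bcl2, which rose, held it. Such a match is a description of the letters and not a binding site.

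All 8 genes had a mean of at least 1 FPKM and were therefore tested, and their positions were the same in the deposited files and in GENCODE vM21 (GRCm38). Creb1 (ENSMUSG00000025958) lies on chromosome 1 from 64532645 to 64604548 on the plus strand. Crem (ENSMUSG00000063889) lies on chromosome 18 from 3266048 to 3337748 on the minus strand, and Atf1 (ENSMUSG00000023027) on chromosome 15 from 100227819 to 100261244 on the plus strand. Crtc1 (ENSMUSG00000003575) lies on chromosome 8 from 70382355 to 70439579 and Crtc3 (ENSMUSG00000030527) on chromosome 7 from 80586627 to 80688877, both on the minus strand. Crtc2 (ENSMUSG00000027936) lies on chromosome 3 from 90254163 to 90264125 on the plus strand. Crebbp (ENSMUSG00000022521) lies on chromosome 16 from 4081328 to 4213997 on the minus strand, and Ep300 (ENSMUSG00000055024) on chromosome 15 from 81585351 to 81652077 on the plus strand.

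Knockdown of Creb1 was deep and of like size with and without TVA. Creb1 was at 11.0, 10.3 and 10.5 FPKM in the 3 siNTC libraries and at 1.19, 1.29 and 1.77 FPKM in the 3 siCreb1 libraries. With TVA it was at 11.0, 11.97 and 12.4 FPKM in siNTC libraries and at 1.81, 1.67 and 1.17 FPKM in siCreb1 libraries. The groups did not overlap in either state. The mean fell by 86.6% without TVA and fell by 86.9% with TVA, and from 11.2 FPKM over the 6 siNTC libraries to 1.48 FPKM over the 6 siCreb1 libraries. On the log2(FPKM + 1) scale the difference was -2.27 (SE 0.11, limma, Benjamini-Hochberg adjusted p = 2.21e-06) without TVA and -2.34 (SE 0.11, limma adjusted p = 2.45e-06) with TVA. As the mean of both TVA states it was -2.30 (95% confidence interval -2.47 to -2.13, limma adjusted p = 7.88e-08), the lowest value of the 11550 genes tested. The residual Creb1 rested on 341 to 596 recovered reads per library, so it was measured and not at the floor of detection.

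**Figure D1:**
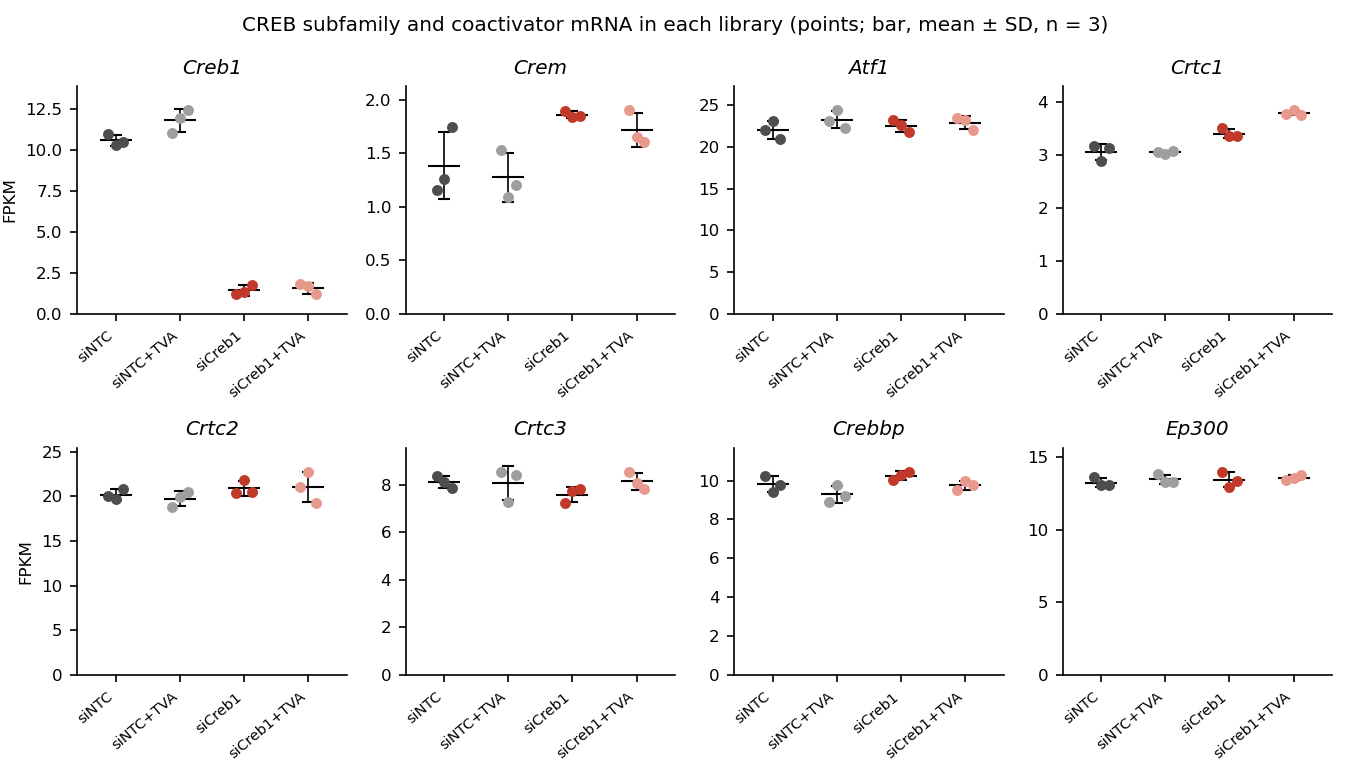
The level of each of the 8 genes in FPKM (vertical axes, each from 0) in the 12 libraries, with siNTC in greys and siCreb1 in reds and the mean ± SD of 3 libraries as black bars. Creb1 fell from between 10.3 and 12.4 FPKM to between 1.17 and 1.81 FPKM, the 6 siCreb1 libraries lay above the 6 siNTC libraries for Crtc1, and the other 6 genes overlapped between them, Crem only across TVA states.

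Besides Creb1, few of the genes differed after knockdown. Without TVA, 1 of the 8 genes passed an adjusted p of 0.05, the target itself, where 13.7% of all genes tested passed. With TVA 2 of the 8 passed, Creb1 and Crtc1, where 10.1% of all genes passed. As the mean of both TVA states 3 of the 8 passed, Creb1 falling and Crem and Crtc1 rising, where 20.5% of all genes passed. With the targeted gene set aside, 2 of the other 7 genes passed in this comparison, which is close to the share over all genes and is no result about these genes as a group.

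Crem, whose products include activators and repressors of CRE-dependent transcription, was the least abundant of the 8 genes in siNTC cells. It was at 1.16, 1.26 and 1.74 FPKM in siNTC libraries and at 1.90, 1.84 and 1.85 FPKM in siCreb1 libraries. With TVA it was at 1.53, 1.09 and 1.20 FPKM in siNTC libraries and at 1.90, 1.65 and 1.61 FPKM in siCreb1 libraries. Within each TVA state the siCreb1 libraries lay above the siNTC libraries, but siNTC replicate 3, at 1.74 FPKM, lay above siCreb1+TVA replicates 2 and 3. The mean rose from 1.33 to 1.79 FPKM, which is 34.6% or 0.461 FPKM.

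The Crem difference on the log2(FPKM + 1) scale was 0.27 (95% confidence interval 0.10 to 0.43, limma adjusted p = 0.0299) as the mean of both TVA states. It did not pass in either state alone, at 0.27 (limma adjusted p = 0.122) without TVA and 0.26 (limma adjusted p = 0.146) with TVA. An exact two-sided permutation test of the difference in FPKM, with labels permuted within each TVA state (400 arrangements), gave p = 0.005, the smallest it can give. The limma call was lost when any of 9 of the 12 libraries was left out (adjusted p up to 0.0694), namely siNTC replicates 1 and 2, siNTC+TVA replicates 2 and 3, the 3 siCreb1 replicates and siCreb1+TVA replicates 1 and 2, and also with quantile normalization or with all 29700 genes above 0 tested (adjusted p = 0.0772 and 0.0893). Limma-voom on the recovered reads, which adds no pseudocount of 1 FPKM, gave 0.45 (adjusted p = 0.00243), and 0.45 in each state (adjusted p = 0.0329 without and 0.0492 with TVA). Crem rested on 107 to 269 reads per library, and the long non-coding gene Gm6225, which overlaps it on the other strand, had at most 22 reads. The files hold a single value per gene, so the repressor ICER and full-length Crem could not be told apart.

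Atf1, whose product binds the same element as CREB1 and which had the highest mean FPKM of the 8 genes in each group, stayed near the same level throughout. It was at 22.0, 23.1 and 21.0 FPKM in siNTC and at 23.2, 22.6 and 21.8 FPKM in siCreb1 libraries. With TVA it was at 23.1, 24.4 and 22.3 FPKM in siNTC and at 23.4, 23.2 and 22.0 FPKM in siCreb1 libraries. All 4 groups overlapped. The log2 difference was 0.03 without TVA, -0.02 with TVA (0.01 with quantile normalization and 0.03 as TPM) and 0.00 as the mean of both states (95% confidence interval -0.06 to 0.07, limma adjusted p = 0.934). As a ratio of FPKM + 1 that interval runs from 0.956 to 1.05. The exact permutation test within TVA states gave p = 0.92.

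**Figure D2:**
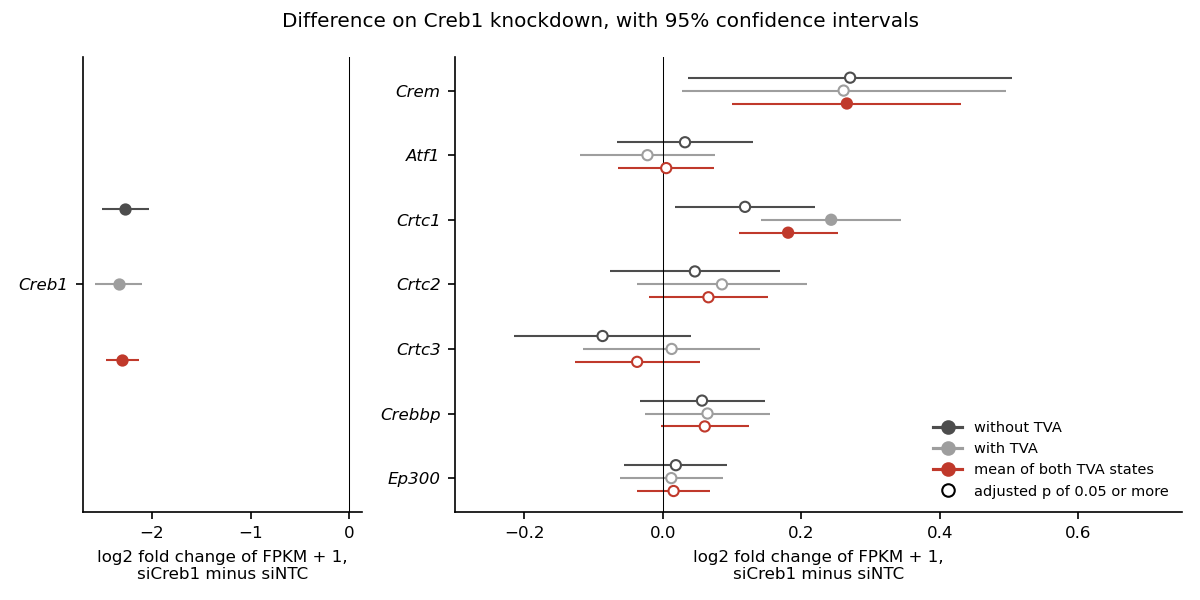
Log2 fold change of FPKM + 1 in siCreb1 minus siNTC cells (horizontal axes, with a separate and wider axis for Creb1), with 95% confidence intervals, without TVA (dark grey), with TVA (light grey) and as the mean of both (red); filled points have an adjusted p below 0.05. Creb1 lay between -2.34 and -2.27, Crem near 0.27 and Crtc1 between 0.12 and 0.24, and the intervals of Atf1, Crtc2, Crtc3, Crebbp and Ep300 included 0.

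Set side by side per length of the listed gene model, the 3 factors of the subfamily changed in their proportions mainly through the fall of Creb1. These lengths were 13742 bases for Creb1, 5895 for Crem and 3060 for Atf1, and the sums and shares below depend on them. In recovered reads Creb1 lay above Atf1 in siNTC libraries without TVA (2457 to 3012 against 1230 to 1345). Their summed level was 34.0 ± 0.718 FPKM (SD, n = 3) in siNTC, 36.3 ± 0.954 FPKM in siNTC+TVA, 25.8 ± 0.459 FPKM in siCreb1 and 26.2 ± 1.23 FPKM in siCreb1+TVA cells. The 6 siCreb1 libraries, at 24.8 to 27.1 FPKM, lay below the 6 siNTC libraries, at 33.2 to 37.4 FPKM. Over both TVA states the mean level of Creb1 fell by 9.71 FPKM, while that of Crem differed by 0.461 FPKM and that of Atf1 by 0.0658 FPKM.

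Atf1 held the largest share of this sum in every library. Its share was 62.1% to 66.7% in siNTC and 85.8% to 88.8% in siCreb1 libraries. The share of Creb1 was 29.7% to 34.6% and 4.51% to 6.98%, and that of Crem 2.91% to 5.24% and 6.22% to 7.27%. Creb1 was 6.02 to 11.0 times the level of Crem in siNTC libraries and 0.625 to 1.01 times its level in siCreb1 libraries. In FPKM the order of Creb1 and Crem thus turned in 5 of the 6 siCreb1 libraries. In recovered reads the order did not turn. Without TVA siCreb1 libraries held 341 to 539 reads of Creb1 and 234 to 242 of Crem, and with TVA 354 to 596 and 209 to 269. No test was applied to the shares, since they carry the fall of the targeted gene.

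**Figure D3:**
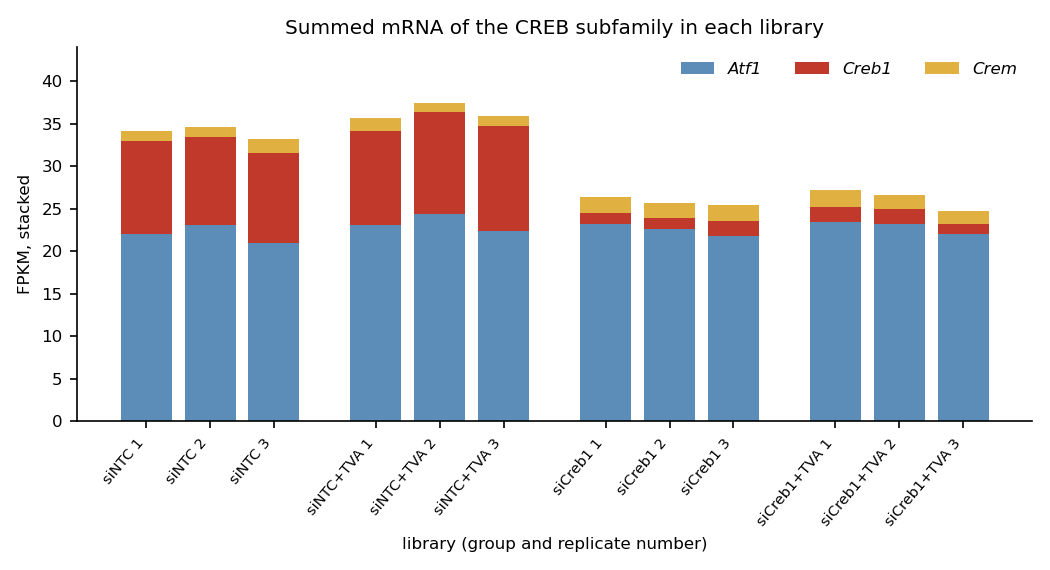
FPKM, which is per length of the listed gene model, of Atf1, Creb1 and Crem stacked in each of the 12 libraries (horizontal axis, group and replicate number). The sum lay between 33.2 and 37.4 FPKM in the 6 siNTC libraries and between 24.8 and 27.1 FPKM in the 6 siCreb1 libraries, the Atf1 part lay between 21.0 and 24.4 FPKM throughout, and the Crem part did not exceed 1.90 FPKM.

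Among the CRTC coactivators, Crtc1 rose and the more abundant Crtc2 and Crtc3 did not pass the test. Crtc1 was at 3.17, 2.87 and 3.12 FPKM in siNTC and at 3.50, 3.36 and 3.35 FPKM in siCreb1 libraries. With TVA it was at 3.04, 3.02 and 3.07 FPKM in siNTC and at 3.76, 3.84 and 3.76 FPKM in siCreb1 libraries. All 6 siCreb1 libraries lay above all 6 siNTC libraries, and the siCreb1+TVA libraries were the highest. The mean rose from 3.05 to 3.59 FPKM, which is 17.9%.

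The Crtc1 difference on the log2(FPKM + 1) scale was 0.24 (SE 0.05, limma adjusted p = 0.00965) with TVA and 0.18 (95% confidence interval 0.11 to 0.25, limma adjusted p = 0.0033) as the mean of both states. Without TVA it was 0.12 and did not pass (limma adjusted p = 0.116). The difference between both TVA states was itself 0.12 (limma adjusted p = 0.424 for the interaction), so a larger effect with TVA was not shown. The exact permutation test within TVA states gave p = 0.005, the smallest it can give. The calls with TVA and for the mean of both states were kept without any 1 library and under every alternative that tested the gene. Crtc1 rested on 559 to 1074 reads per library.

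Crtc2 was at 20.1, 19.7 and 20.9 FPKM in siNTC and 20.4, 21.9 and 20.5 FPKM in siCreb1 libraries, and with TVA at 18.8, 19.98 and 20.5 FPKM and at 21.1, 22.8 and 19.3 FPKM. Crtc3 was at 8.35, 8.11 and 7.87 FPKM in siNTC and 7.21, 7.74 and 7.79 FPKM in siCreb1 libraries, and with TVA at 8.53, 7.26 and 8.39 FPKM and at 8.51, 8.07 and 7.80 FPKM. The groups overlapped for Crtc2 in both states. For Crtc3 they overlapped with TVA and lay just apart without it, with siCreb1 lower. As the mean of both states the log2 difference of Crtc2 was 0.07 (95% confidence interval -0.02 to 0.15, limma adjusted p = 0.264) and that of Crtc3 -0.04 (95% confidence interval -0.13 to 0.05, limma adjusted p = 0.562). On the TPM scale the value of Crtc3 was 0.01. The antisense gene Gm15880 within Crtc3 had at most 11 reads.

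The acetyltransferases CBP and p300 serve many other factors besides CREB1, and their mRNAs moved little. Crebbp was at 10.3, 9.43 and 9.77 FPKM in siNTC and 10.0, 10.3 and 10.4 FPKM in siCreb1 libraries, and with TVA at 8.91, 9.76 and 9.20 FPKM and at 9.53, 9.97 and 9.75 FPKM. Its log2 difference was 0.06 as the mean of both states (95% confidence interval -0.0033 to 0.12, limma adjusted p = 0.165), but 0.11 (adjusted p = 0.0221) on the TPM scale and 0.08 (adjusted p = 0.038) with limma-voom. The ranges overlapped in both states, and the exact permutation test within TVA states gave p = 0.045, unadjusted.

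Ep300 was at 13.6, 13.1 and 13.1 FPKM in siNTC and 14.0, 13.0 and 13.4 FPKM in siCreb1 libraries, and with TVA at 13.8, 13.3 and 13.3 FPKM and at 13.4, 13.6 and 13.8 FPKM. All 12 libraries lay between 13.0 and 14.0 FPKM, and the groups overlapped in both states. The log2 difference was 0.02 (95% confidence interval -0.04 to 0.07, limma adjusted p = 0.691). The exact permutation test within TVA states gave p = 0.445 for Ep300, 0.13 for Crtc2 and 0.395 for Crtc3.

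TVA itself did not alter any of the 8 genes detectably. In siNTC cells 0 of the 8 passed with limma, where 7.38% of all genes passed, and in siCreb1 cells 0 of the 8 passed, where 0.537% of all genes passed. In the test of whether the effect of TVA differed between siCreb1 and siNTC cells 0 of the 8 passed, where 2.24% of all genes passed. With limma-voom the count was likewise 0 in each of these 3 comparisons, where 1034, 160 and 451 of all 11550 genes passed. The TVA comparison in siNTC cells shares its siNTC libraries with the knockdown comparison, so their values are not independent.

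In siNTC cells TVA moved Creb1 by 0.14 (95% confidence interval -0.09 to 0.38, limma adjusted p = 0.503), although the 3 libraries with TVA lay above the 3 without, from 10.6 to 11.8 FPKM in the mean. Crem differed by -0.07 and Atf1 by 0.08, and neither passed (limma adjusted p = 0.791 and 0.376). In siCreb1 cells the TVA difference with the smallest adjusted p was that of Crtc1, at 0.12 (95% confidence interval 0.02 to 0.22, limma adjusted p = 0.424, unadjusted p = 0.0229 in limma), which rose from 3.40 to 3.79 FPKM in the mean without overlap of the libraries. The libraries did not overlap in siCreb1 cells for Crtc3 (7.58 to 8.13 FPKM in the mean) and Crebbp (10.3 to 9.75 FPKM) either. Neither of these passed (limma adjusted p = 0.692 and 0.682). At an unadjusted p below 0.05 in limma Crtc1 was the only gene of the 8 in any of these 3 comparisons. Over all 11550 genes there were 2417 for TVA in siNTC cells, 1106 for TVA in siCreb1 cells and 1657 for the interaction.

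The order of the 8 levels was Atf1, Crtc2, Ep300, Creb1, Crebbp, Crtc3, Crtc1 and Crem in both siNTC groups, and no neighbours in this order overlapped. In both siCreb1 groups Creb1 moved to the last place, while the order of the other 7 genes was the same as in siNTC. Creb1 and Crem overlapped in siCreb1+TVA and not in siCreb1 libraries, and Atf1 and Crtc2 overlapped in both. FPKM is per length of the listed gene model, so such orders between genes depend on those lengths.

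By the root mean square difference over the 12 libraries of log2(FPKM + 1), each gene taken relative to its own siNTC mean, no tested gene followed Creb1 closely. The nearest were Trav9n-3, Igkj4 and Gm19366, at 0.91, 1.02 and 1.05, where a flat line would be at 1.58 from Creb1. The genes nearest to Crem were Pde1b, Zfp280c and Fyco1, at 0.08, 0.08 and 0.09 with a flat line at 0.20. The genes nearest to Atf1 were N4bp1, Cnot10 and Ctcf, at 0.03, 0.04 and 0.04, with a flat line at 0.07. Among so many genes some are always near, so these lists are a description and not a test. Atf1 did not differ on knockdown, so likeness to it need not reflect the knockdown.

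The wider set of CREB and ATF leucine-zipper factors also showed modest differences. Of 19 such genes 12 were tested, and as the mean of both TVA states 2 were higher and 2 lower after knockdown, where 20.5% of all genes tested passed. Atf7 rose by 0.17 on the log2 scale (limma adjusted p = 0.0049), from 5.89 ± 0.203 to 6.60 ± 0.421 FPKM without TVA (SD, n = 3), where it did not pass alone, and Crebzf by 0.08 (limma adjusted p = 0.0444). Atf4, the effector of the integrated stress response, fell by 0.18 (limma adjusted p = 0.00109), from 49.6 ± 2.16 to 42.5 ± 0.700 FPKM without TVA. Batf, an AP-1 factor of effector T cells, fell by 0.18 (limma adjusted p = 0.0195, and 0.0888 on the TPM scale). The median over the 12 was -0.04, against -0.01 over all genes tested. The 7 genes not tested, among them Creb3l1, Creb5 and Atf3, had means below 1 FPKM.

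Among 12 tested kinases that phosphorylate CREB1, 1 was lower and none was higher in limma as the mean of both TVA states, where 20.5% of all genes passed, and the median was -0.03 against -0.01 over all genes. Akt1 fell by 0.16 (limma adjusted p = 0.000814), from 48.8 ± 1.59 to 44.2 ± 0.679 FPKM without TVA (SD, n = 3). The catalytic subunits of PKA, Prkaca and Prkacb, and the calcium-dependent kinase Camk4 did not pass. At an unadjusted p below 0.05 in limma there were 3 of the 12, of which 1 was higher, where 3996 of all 11550 genes were. Rps6ka3 was also higher on the TPM scale and, with Camk2g, in limma-voom.

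The next list held 10 kinases and phosphatases that act on the CRTC proteins, directly or, as Stk11, through their kinases. Of these 4 were lower and none was higher after knockdown as the mean of both TVA states, and on the TPM scale 2 were lower. In this comparison 20.5% of all genes passed, 1271 of them lower and 1101 higher, and the median over the 10 was -0.09 against -0.01 over all genes. On the TPM scale 441 of all 11550 genes passed as lower and 1615 as higher. No test of the 10 genes as a group was made. Ppp2ca fell by 0.19 (limma adjusted p = 0.000938) and Ppp1ca by 0.15 (limma adjusted p = 0.000349); these encode catalytic subunits of the phosphatases PP2A and PP1 and also passed as TPM, with quantile normalization and with limma-voom. Ppp3r1, the regulatory subunit of calcineurin, fell by 0.14 and the kinase Sik3 by 0.11 (limma adjusted p = 0.00413 and 0.0493), and neither passed on the TPM scale. The catalytic calcineurin subunits Ppp3ca and Ppp3cb did not pass. Sik1, both a kinase of the CRTC proteins and a CREB target, was at 5.14 ± 0.377 FPKM in siNTC and 3.96 ± 0.226 FPKM in siCreb1 cells (SD, n = 3), a fall by 0.31 without TVA (limma adjusted p = 0.0123). With TVA it was at 4.07 ± 0.367 FPKM in siNTC and 4.21 ± 0.120 FPKM in siCreb1 cells, a difference of 0.04 (limma adjusted p = 0.719). The interaction of Sik1 was 0.35 and did not pass (limma adjusted p = 0.092, unadjusted p = 0.00333).

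Of 11 partners of CBP and p300, 2 were higher and 2 lower as the mean of both TVA states, and 2 and 1 on the TPM scale, where 20.5% of all genes passed on the FPKM scale and 2056 of 11550 on the TPM scale. The median over the 11 was 0.04 against -0.01 over all genes. Med1, a Mediator subunit, rose by 0.15 and the nuclear receptor coactivator Ncoa3 by 0.10 (limma adjusted p = 0.00126 and 0.0225). Cited2, which competes with other factors for CBP and p300, fell by 0.32 (limma adjusted p = 0.00154), from 21.7 ± 1.91 to 15.3 ± 1.04 FPKM without TVA (SD, n = 3). Rela fell by 0.10 (limma adjusted p = 0.0216, and 0.252 on the TPM scale). Of 8 other lysine acetyltransferases none passed in limma in a knockdown comparison, nor with limma-voom. At an unadjusted p below 0.05 in limma there were 2 without TVA, 1 with TVA and 0 as the mean of both states. Over all 11550 genes there were 3248, 3029 and 3996. Of 7 tested histone deacetylases Hdac5, a class IIa enzyme, fell by 0.23 (limma adjusted p = 0.000337), from 10.3 ± 0.355 to 8.06 ± 0.280 FPKM without TVA. In siNTC cells TVA also lowered Hdac5, to 9.15 FPKM in the mean, and raised the acetyltransferase Hat1 from 14.7 to 19.1 FPKM. Both passed in limma, where 7.38% of all genes passed, but Hdac5 did not pass on the TPM scale. The TVA comparison shares its siNTC libraries with the knockdown comparison without TVA.

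**Figure D4:**
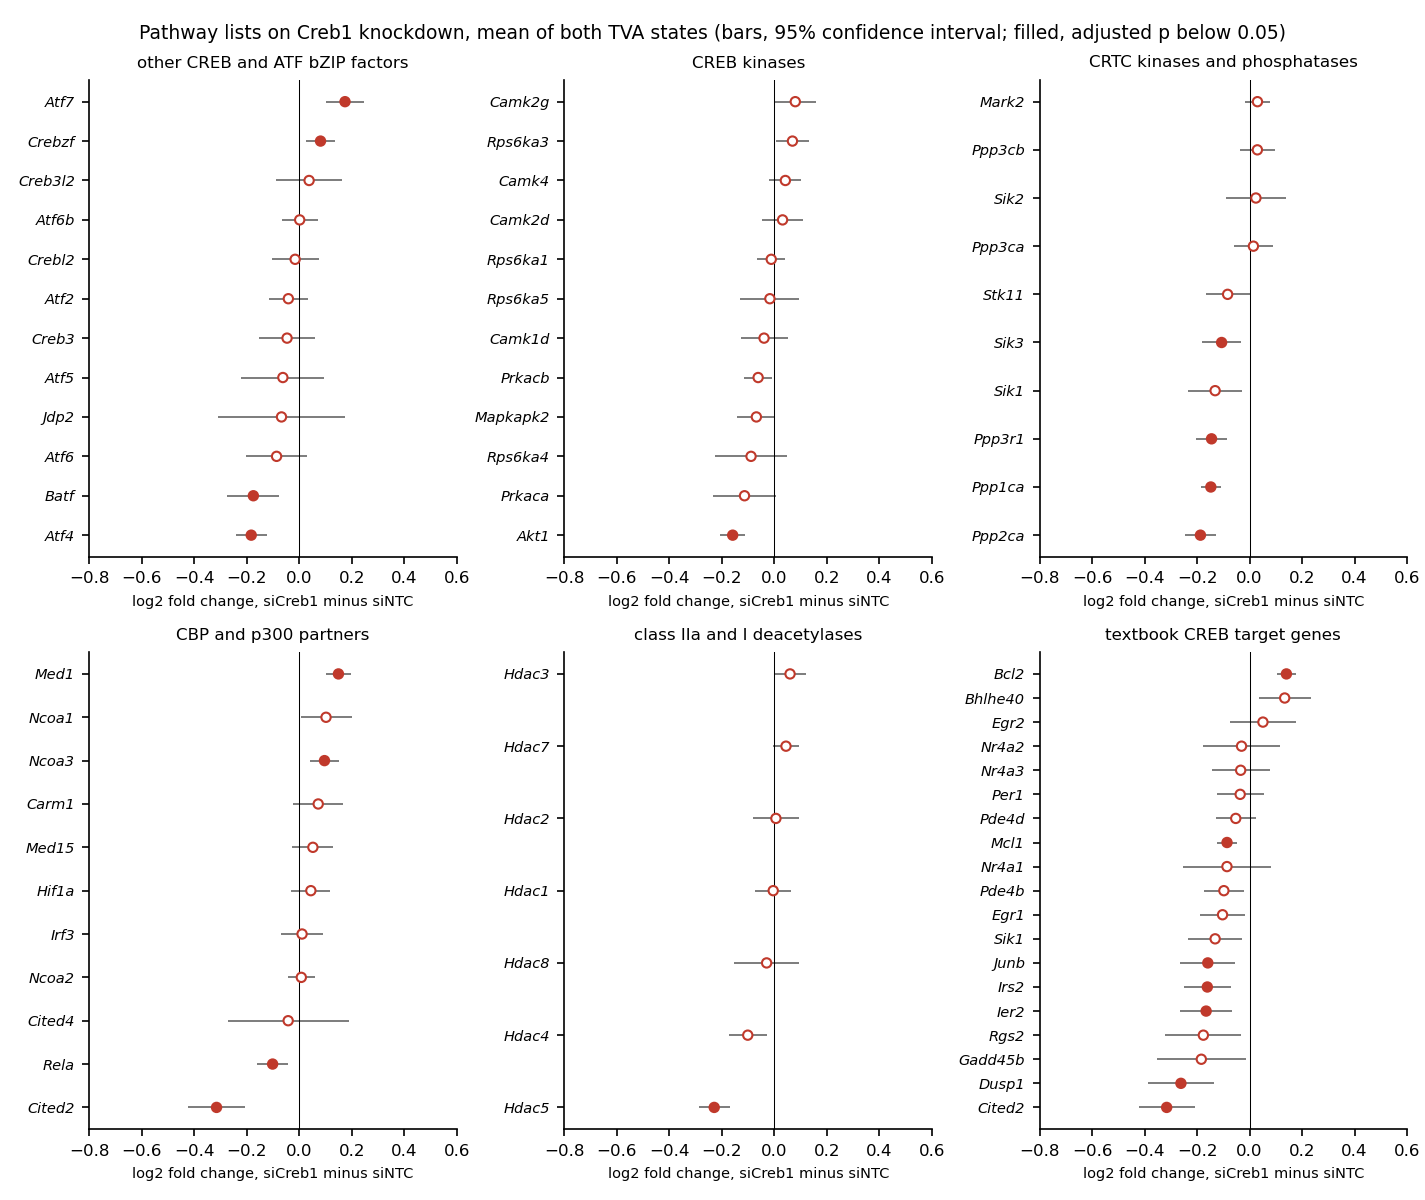
Log2 fold change of FPKM + 1 in siCreb1 minus siNTC cells as the mean of both TVA states (horizontal axes) for the tested genes of 6 lists, with 95% confidence intervals; filled points have an adjusted p below 0.05. The 4 filled points among kinases and phosphatases of the CRTC proteins lie below 0, and of 19 textbook target genes shown 6 filled points lie below 0 and Bcl2 above.

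Textbook CREB target genes were also read, and they did not enter the choice of the 8 genes, apart from Crem itself, which is on both lists. They were measured in the same 12 libraries, and their list was chosen with earlier results of these data known. They are therefore not an independent measure. Of 24 such genes 20 were tested. Of all genes 13.7% passed without TVA, 10.1% with TVA and 20.5% as the mean of both states. Without TVA 8 were lower and 1 higher after knockdown, with TVA none passed in limma, and as the mean of both states 6 were lower and 2 higher. At an unadjusted p below 0.05 in limma there were 3 of the 20 with TVA, where 3029 of all 11550 genes were. Without TVA there were 15 of the 20, where 3248 of all genes were. On the TPM scale the counts were 5 lower and 2 higher without TVA, and 2 lower and 3 higher as the mean of both states. Of all 11550 genes 297 were lower and 908 higher as TPM without TVA, and 441 lower and 1615 higher as the mean. The median over the list as TPM was -0.09 without TVA and -0.06 as the mean, each against 0.04 over all genes. With limma-voom Bcl2 and Crem were higher with TVA and none was lower, where 1533 of all 11550 genes passed. On the FPKM scale the median over the list without TVA was -0.13, against 0.00 over all genes tested, and with TVA -0.06 against -0.01. For none of the 20 genes did the effect of knockdown differ between the TVA states by the interaction test in limma. At an unadjusted p below 0.05 in that test there were 7 of the 20, where 1657 of all 11550 genes were. With limma-voom 1 passed, Bcl2, by -0.13 (adjusted p = 0.0172, where 451 of all 11550 genes passed). A difference between the TVA states was thus not shown for the list.

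The target genes that fell without TVA included Cited2, by 0.48, Gadd45b, by 0.41, Dusp1, by 0.34, and Sik1, by 0.31 (limma adjusted p = 0.00162, 0.0314, 0.0196 and 0.0123). Dusp1 was at 3.20 ± 0.122 FPKM in siNTC and 2.32 ± 0.259 FPKM in siCreb1 cells (SD, n = 3), and Junb, which fell by 0.26 (limma adjusted p = 0.0287, and 0.0618 on the TPM scale), at 50.5 ± 3.71 and 42.1 ± 3.38 FPKM. Irs2, Ier2 and Mcl1 fell by 0.27, 0.22 and 0.13, and of these Ier2 and Mcl1 did not pass as TPM or with quantile normalization. Bcl2, an inhibitor of cell death, rose by 0.20 (limma adjusted p = 0.000433), from 68.4 ± 1.46 to 78.8 ± 1.08 FPKM. Of the 18 target genes with a RefSeq promoter used here, 14 held TGACG or CGTCA and 1, Dusp1, the full CRE. A gene was counted if any of its promoters held the motif, and Egr2, Pde4b and Per1 had several promoters. The count per gene is thus not comparable with the shares of all single promoters, 20.8% for the short motif and 1.79% for the full CRE. The short motif was in Dusp1, Junb and Mcl1 and not in Cited2, Gadd45b and Irs2, which all fell, and it was in Bcl2, which rose. In siNTC cells TVA lowered 3 of the 20, Sik1, Irs2 and Pde4d, by 0.28, 0.25 and 0.20 (limma adjusted p = 0.0286, 0.0258 and 0.0325), where 7.38% of all genes passed. On the TPM scale Irs2 alone of the 20 passed (adjusted p = 0.0384, against 0.0605 for Sik1 and 0.0811 for Pde4d), where 556 of all 11550 genes passed. It is a comparison that shares its siNTC libraries with the knockdown comparison without TVA.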

How the data were processed

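The authors deposited FPKM values, with 1 file per library and 54532 genes in each, with coordinates on GRCm38. The aligner, counting program and use of strand are not given in the sources used here. FPKM times gene length was a whole multiple of a step for at least 99.995% of genes above 0 (tolerance 0.05 reads), which gave the recovered reads. The 11550 genes with a mean of at least 1 FPKM across the 12 libraries entered limma 3.58.1 in R 4.3.3 as log2(FPKM + 1) (a coefficient per group, mean-variance trend, Benjamini-Hochberg adjustment over all genes tested, threshold 0.05). A fold change on this scale understates the change of low genes. Within a TVA state, 3 against 3 libraries allow an exact p of 0.1 at the smallest. The main fit and limma-voom were tested on simulated data in which genes were changed by knockdown only. The other fits and the permutation test were not tested in this way.

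The 8 genes, the lists and the tests were chosen with earlier results of these data known. In the list of CBP and p300 partners, 1 gene is not reported here, and the counts leave it out. All 8 genes were named. From each other list, genes with an adjusted p below 0.05 could be named, up to 6 per list and comparison. The genes most like Creb1, Crem and Atf1 were the 3 nearest over the 12 libraries. Nothing says that the libraries came from separate mice or cultures, so p-values measure only the spread between these libraries. The replicate numbers come from the sample labels.

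As alternatives the pseudocount was 0.1, or the genes tested were those above 0 in at least 1 library or those with a mean of at least 5 FPKM. Further alternatives were quantile normalization, TPM, the replicate number as a block, no trend, limma-voom on recovered reads with TMM factors, only the libraries compared, and leaving out each library. Limma-voom on all genes above 0 was chosen after seeing the data. Figures were drawn with matplotlib 3.10.9.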

Additional observations from a re-analysis of the deposited data

How the results depend on the processing

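The 3 falls of Creb1 after knockdown passed under every alternative and without any 1 library. So did the rises of Crtc1 with TVA and as the mean of both states wherever it was tested. Without TVA 2 of the 8 genes were called with no mean-variance trend (Crtc1 added, 1470 of all 11550 genes) and with limma-voom (Crem added, 1968). Without 1 library the count was 1 to 2, the 2 being without siNTC replicate 3 (Crem, 0.38, adjusted p = 0.0391). A mean of at least 5 FPKM removes Crem and Crtc1. The count was then 1 with TVA and as the mean of both states (1164 and 2079 of 7480 genes). As the mean of both states it was 4 as TPM and with limma-voom (Crebbp added, 2056 and 2727 of all genes). It was 2 with quantile normalization and with all genes above 0 (Crem lost, 2000 of 11550 and 1700 of 29700), and 2 to 3 without 1 library. The replicate block kept the counts of the 8 genes in all 6 comparisons (Crem as the mean of both states, adjusted p = 0.0473). Same-numbered libraries did not deviate together (correlations from -0.06 to 0.06), which cannot show whether they were paired, and the sources do not say. Over all genes the block lowered TVA calls in siCreb1 cells from 62 to 34.

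Where a value turned sign, that gene did not pass in that comparison in any fit named here or without any 1 library. These were, after knockdown, Atf1 with TVA (0.0102 with quantile normalization and 0.029 as TPM) and Crtc3 as the mean of both states (0.0078 as TPM). They also included the TVA effect on Crtc3 in siNTC cells (0.0001034 with limma-voom) and the interaction of Crem (0.0072) and of Ep300 (0.0031) with limma-voom on all genes above 0. The cause was not tested. Leaving out 1 library gave, after knockdown, -0.00096 to 0.065 for Atf1 and -0.0083 to 0.044 for Ep300 without TVA, -0.051 to 0.0104 for Atf1 and -0.053 to 0.051 for Crtc3 with TVA, and -0.012 to 0.022 for Atf1 as the mean of both states. For TVA in siNTC cells it gave -0.15 to 0.039 for Crem, -0.035 to 0.017 for Crtc1, -0.058 to 0.0013 for Crtc2 and -0.048 to 0.055 for Crtc3. For TVA in siCreb1 cells it gave -0.00202 to 0.048 for Atf1, -0.048 to 0.064 for Crtc2 and -0.0087 to 0.043 for Ep300. For the interaction it gave -0.14 to 0.045 for Creb1, -0.11 to 0.0705 for Crem, -0.016 to 0.097 for Crtc2, -0.021 to 0.0405 for Crebbp and -0.031 to 0.021 for Ep300.

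Over all genes tested, knockdown calls ranged over the alternatives that kept all libraries from 817 to 1968 without TVA, 683 to 1533 with TVA and 1700 to 2727 as the mean of both states, TVA calls from 368 to 1034 in siNTC and 34 to 178 in siCreb1 cells, and interaction calls from 152 to 451. Without 1 library these ranges were 1020 to 1532, 599 to 1245, 1872 to 2144, 558 to 767, 30 to 67 and 168 to 237. Calls moved by over 1.5 times without siCreb1 replicate 1 or 2 (1020 and 1054 knockdown calls without TVA, 33 and 30 TVA calls in siCreb1 cells, 168 and 172 interaction calls), without siNTC+TVA replicate 1, 2 or 3 (757, 655 and 752 knockdown calls with TVA, and for replicate 2 also 558 TVA calls in siNTC cells and 172 interaction calls), and without siCreb1+TVA replicate 1, 2 or 3 (599, 601 and 669 knockdown calls with TVA, 35, 35 and 31 TVA calls in siCreb1 cells). As the mean of both states 1101 of 2372 knockdown calls were higher as FPKM and 1615 of 2056 as TPM. Directions of small differences thus depend on the scale. Isoforms, proteins and phosphorylation were not measured, and 107 to 269 reads per library limit Crem most.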
